A study of Mus musculus with 6 samples.

Results

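The 10 genes described here encode abundant building blocks of the actin cortex, the layer of filaments under the plasma membrane. They are the cytoplasmic actins Actb and Actg1, the monomer-binding proteins Pfn1, Tmsb4x and Tmsb10, the filament severing and side-binding proteins Cfl1 and Coro1a, the capping protein subunit Capzb, and the ERM linkers Ezr and Msn. They were taken by symbol from the 23420 genes listed for each library, and all 10 were found.

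The RNA came from sorted germinal centre B cells of mouse spleen, the antigen-activated B cells that divide, mutate their antibody genes and compete for T cell help. KO mice were BASP1 fl/fl hCD20TamCre+/- and WT mice were BASP1 +/+ hCD20TamCre+/-, with 3 libraries each. All mice of both groups were immunized with NP-KLH, a hapten on a carrier protein, and received 1 mg tamoxifen on day 5, day 7 and day 9, and the cells were taken on day 10. The Cre of both groups is one of B cells that tamoxifen activates, so deletion depends on how many cells recombined. The labels do not say whether the libraries came from separate mice, so p-values measure only the spread between these libraries, and the labels give no age for the mice.

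Actin monomers add to the fast-growing end of a filament and leave from the other end. Profilin loads monomers for growth, β-thymosins hold a reserve of monomers, cofilin severs and depolymerizes old filaments, coronin 1A binds filaments and works with cofilin and the Arp2/3 complex, and capping protein closes the growing end. Ezrin and moesin, once opened by phosphoinositide binding and phosphorylation, tie filaments to membrane proteins, and in B cells they restrain the movement of the antigen receptor. BASP1 is a myristoylated protein of the inner membrane leaflet that binds phosphoinositides, which places it beside this layer.

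The deposited values were log2 CPM (read counts scaled to a common library total), with nearly the same distribution in every library: over the top 1000 ranks, the values at equal rank differed between libraries by a median of 0.018 and at most 0.186 on the log2 scale. Between 10160 and 10173 genes per library reached 1 CPM, and read depth is unknown. Basp1 itself had 3.270, 2.861 and 3.231 log2 CPM in KO libraries, against 5.486, 5.895 and 5.525 in WT libraries (KO minus WT -2.51 ± 0.45, SD, n = 3 pairs; limma adjusted p = 3.3e-16). Of the germinal centre B cell markers 9 of 9 reached a mean of 1 CPM, with summed levels of 3310 to 3420 CPM in KO and 3460 to 3570 CPM in WT libraries. Of the T cell markers 0 of 5 reached it (0.286 to 0.532 CPM in KO, 0.419 to 0.83 CPM in WT), and Cd3e lay at the lowest common value of -5.063 in all libraries. None of the markers reached it for granulocytes (0 of 6; 0.138 to 0.769 CPM in KO, 0.495 to 2.23 CPM in WT), erythroid cells (0 of 5; 1.5 to 5.57 CPM in KO, 0.599 to 1.19 CPM in WT) and platelets (0 of 4; 1.08 to 2.00 CPM in KO, 0.653 to 1.56 CPM in WT). Of the myeloid markers 2 of 7 did (8.81 to 12.2 CPM in KO, 10.8 to 15.4 CPM in WT), and of the plasma cell markers 3 of 5 did (1960 to 2140 CPM in KO, 2090 to 2310 CPM in WT). That sum is mostly Igj (mean 10.69 log2 CPM in KO, 10.85 in WT) and Xbp1 (8.536 in KO, 8.482 in WT). The low plasma cell genes Prdm1 and Sdc1 were higher in every KO library than in any WT library, a pattern found in 15.2% of all genes tested below. The list's median difference was 0.527, 0.223 and 0.01 in the 3 pairs. The pan B cell markers (5 of 5) summed to 7370 to 7640 CPM in KO and 7880 to 8170 CPM in WT libraries, with no overlap. Of the sums above, those of the germinal centre B cell markers (lower in KO) and the erythroid markers (higher in KO) did not overlap either. The part of these markers in the results below was not tested. In bulk RNA, fewer cells of a type and less RNA per cell cannot be told apart.

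Libraries are compared by replicate number, KO minus WT. The deposited values hold no difference between the numbers: for every gene the KO and WT values of a number have the same sum to within 0.001. The values of the 2 groups are therefore mirror images, their SDs are equal by construction, and what a gene has to show is 1 level and 3 paired differences.

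As a group the 10 genes were among the most abundant transcripts of these cells, and none of the 7 that could be tested passed 5% FDR. They held 3.02%, 3.06% and 3.02% of all listed CPM in KO libraries, against 3.03%, 2.99% and 3.03% in WT libraries. Of this, 17633 CPM in every library came from 3 genes with identical values in all libraries, so most of the share is fixed. The other 7 genes summed to 12496, 12993 and 12523 CPM in KO libraries, against 12682, 12232 and 12661 CPM in WT libraries, and these sums overlapped. Of 10133 genes tested 27 passed (0.266%), and at an unadjusted limma p under 0.05 there were 894 genes (8.82%) but 0 of these 7. The adjusted p-values of the 7 lay between 0.606 and 0.945. Their median difference was 0.030 on the log2 scale, beside 0.0037 over all tested genes. The other 3 genes, Pfn1, Tmsb4x and Cfl1, had 1 value in all 6 libraries and carry no difference to test.

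**Figure D1:**
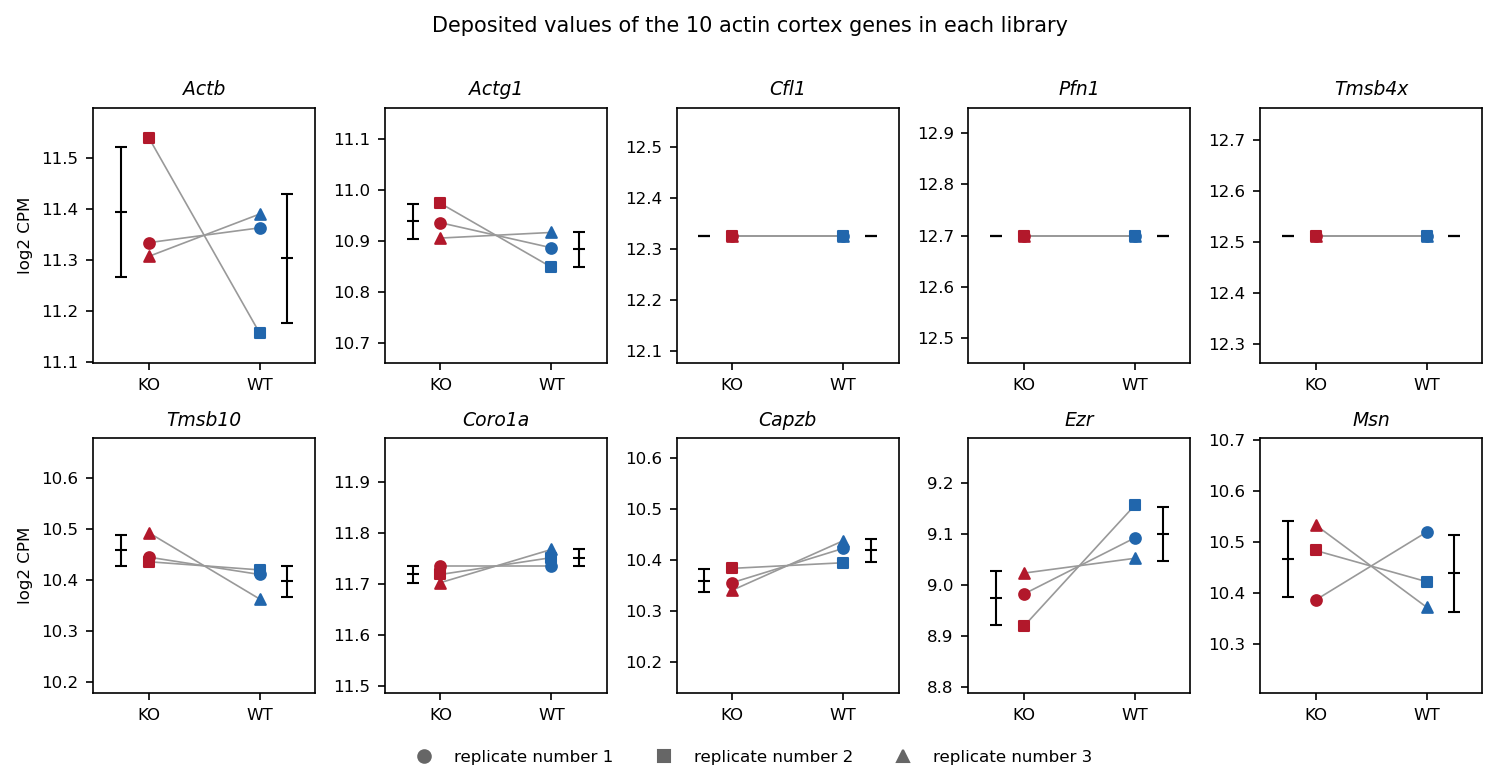
Deposited log2 CPM (y axis, every panel spans the same 0.5 log2 units) of each gene in KO libraries (red, left) and WT libraries (blue, right). Lines join libraries of the same replicate number, and bars give the mean ± SD of 3 libraries. Cfl1, Pfn1 and Tmsb4x are flat lines, Actb opens widest through number 2, and the groups are apart in Tmsb10, Capzb and Ezr. Among all tested genes, 15.2% had all KO libraries above all WT libraries and 12.5% had all below.

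Actb encodes β-actin, the main actin of moving cell edges (chromosome 5, 142903115 to 142906754, minus strand, GRCm38; 6 exons). It had 11.334, 11.540 and 11.307 log2 CPM in KO libraries, against 11.363, 11.157 and 11.390 in WT libraries. The highest and the lowest library were both of number 2, and the groups overlapped. The paired differences were -0.029, 0.383 and -0.083, a mean of 0.09 ± 0.26 (SD, n = 3 pairs; limma adjusted p = 0.847; 95% interval 0.933-fold to 1.22-fold). Without pair 2 the mean turned to -0.056. Of the 800 tested genes averaging 256 CPM or more, 97.0% had a smaller SD of the paired differences than Actb. In pair 2 the nuclear and non-coding RNA list, a sign of RNA quality, also had its lowest median difference (-0.835, against -0.258 in pair 1 and 0.271 in pair 3), and its part in the Actb value was not tested.

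Actg1 encodes γ-actin, whose protein differs from β-actin at only a few residues near the start (chromosome 11, 120345690 to 120348542, minus strand, GRCm38; 6 exons). It had 10.935, 10.973 and 10.905 log2 CPM in KO libraries, against 10.886, 10.848 and 10.916 in WT libraries. The groups overlapped through number 3, and KO was higher in pairs 1 and 2. The mean difference was 0.05 ± 0.07 (limma adjusted p = 0.857; 95% interval 0.962-fold to 1.12-fold).

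The coding sequences of both actins were identical at 1000 of 1128 bases (88.7%), so reads can be shared. Of all windows of 50 bases in the Actg1 transcript 56.7% also occurred in transcripts of another annotated gene, mostly in the copy Gm12715, and 14.2% of those of Actb did. Only 2.10% of the Actg1 windows were shared with genes listed in the files. No label says how reads with several matches were counted, so the Actg1 level is uncertain. The share of β-actin to γ-actin transcript within a library, Actb minus Actg1, was 0.399, 0.567 and 0.402 on the log2 scale in KO libraries, against 0.477, 0.309 and 0.474 in WT libraries. Actb was higher in all 6 libraries, by 1.24-fold to 1.48-fold, on transcripts of nearly equal length. The ratio differed between groups by 0.04 ± 0.19 (exact sign-flip test over 3 pairs, two-sided, p = 1.0). With 3 pairs that test cannot go below 0.25, for this ratio and the 3 others given below.

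Actin genes are classical targets of serum response factor (SRF), which binds a motif called the CArG box and whose MRTF coactivators are switched on when free actin monomers run low. Promoter windows from 250 bases before to 50 after the start were taken from RefSeq (GRCm38.p6) for 9 of the 10 genes, all but Actb. The CArG box, which reads the same on both strands, occurred in 1 of these 9, Actg1. It occurred in 488 of 27025 genes with a window (1.81%) and in 1.63% of all windows. The stretch that holds it runs from 150 to 51 bases before the RefSeq start of Actg1, on the minus strand at chr11:120348546-120348645. That start lies inside the Actg1 span given above, which is from GENCODE, so distances from the GENCODE start are shorter. The capitals mark the box, which begins 90 bases before the RefSeq start.
Actg1 promoter: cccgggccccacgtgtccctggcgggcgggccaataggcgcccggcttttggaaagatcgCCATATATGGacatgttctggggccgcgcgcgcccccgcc
A match in this window is a description of its letters and not of binding. Srf, the factor's own gene, had 3.736, 3.489 and 3.343 log2 CPM in KO libraries, against 3.507, 3.754 and 3.900 in WT libraries, and these groups overlapped (-0.20 ± 0.40, limma adjusted p = 0.778).

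Pfn1, profilin 1, hands ATP-loaded monomers to the growing end (chromosome 11, 70651850 to 70654644, minus strand, GRCm38; 3 exons). Its value was 12.700 log2 CPM (6654 CPM) in the 3 KO and the 3 WT libraries alike. Tmsb4x, thymosin β4, is the main monomer reserve of white blood cells (chromosome X, 167207093 to 167209315, minus strand, GRCm38; 3 exons). Its value was 12.512 (5841 CPM) in every KO and every WT library. Equal values to 3 decimals in separate libraries are what quantile normalization leaves, in which the gene of a given rank receives the value of that rank.

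Tmsb10, thymosin β10, is a relative that also holds monomers (chromosome 6, 72957347 to 72958748, minus strand, GRCm38; 2 exons in the transcript used). It had 10.445, 10.436 and 10.493 log2 CPM in KO libraries, against 10.411, 10.420 and 10.363 in WT libraries. Every KO library lay above every WT library, by little. Among all tested genes 15.2% had all KO libraries above all WT libraries, and with mirrored values this follows whenever the 3 pairs go one way. The mean difference was 0.06 ± 0.06, 1.04-fold (limma adjusted p = 0.843; 95% interval 0.962-fold to 1.13-fold).

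Both thymosin coding sequences have 135 bases with the stop codon and were identical at 95 of them (70.4%). They are shown whole, since they carry one gene with a fixed value and one with a free value, and since their difference decides whether reads can be told apart. Capitals mark the 40 bases that differ.
Tmsb4x coding sequence: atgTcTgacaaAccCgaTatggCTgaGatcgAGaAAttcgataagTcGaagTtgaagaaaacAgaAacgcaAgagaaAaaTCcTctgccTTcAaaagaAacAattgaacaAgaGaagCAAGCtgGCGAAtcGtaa
Tmsb10 coding sequence: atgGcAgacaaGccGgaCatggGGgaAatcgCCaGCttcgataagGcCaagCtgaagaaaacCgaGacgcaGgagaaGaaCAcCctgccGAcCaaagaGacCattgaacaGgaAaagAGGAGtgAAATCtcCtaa
The sequences were read from GENCODE M21 transcripts of GRCm38. No window of 50 bases in the Tmsb4x transcript (0.0%) occurred in another annotated gene, while 43.5% of those of Tmsb10 did, all in genes that the files do not list (Gm9844 foremost), so the Tmsb10 level is uncertain in the way given for Actg1. Tmsb4x minus Tmsb10 was 2.067, 2.076 and 2.019 in KO libraries, against 2.101, 2.092 and 2.149 in WT libraries. The Tmsb4x value being fixed, this ratio (KO minus WT -0.06 ± 0.06; exact sign-flip test, two-sided, p = 0.25, the smallest it can give) shows only the movement of Tmsb10.

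Cfl1, cofilin 1, severs and depolymerizes filaments and is switched off by LIM kinases (chromosome 19, 5490455 to 5495201, plus strand, GRCm38; 4 exons). Its value was 12.327 log2 CPM (5138 CPM) in every KO and every WT library. Of its windows of 50 bases 23.0% occurred in another annotated gene, and 16.2% in the overlapping gene Snx32 on the other strand, which averaged 2.88 CPM in KO and 3.12 CPM in WT libraries. Whether reads were counted by strand is stated by no label.

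Coro1a, coronin 1A, is the coronin of blood cells and is needed for lymphocyte survival and signalling (chromosome 7, 126699773 to 126707787, minus strand, GRCm38; 11 exons). It had 11.735, 11.718 and 11.702 log2 CPM in KO libraries, against 11.735, 11.751 and 11.767 in WT libraries. Number 1 had equal values in both groups, and in numbers 2 and 3 KO was lower. The mean difference was -0.03 ± 0.03 (limma adjusted p = 0.923; 95% interval 0.910-fold to 1.05-fold). Bola2, on the other strand, overlaps its exons and averaged 72.2 CPM in KO and 63.7 CPM in WT libraries, against 3370 CPM in KO and 3447 CPM in WT for Coro1a.

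Capzb, the β subunit of the heterodimer that caps growing ends, lies on chromosome 4 (139192899 to 139291818, plus strand, GRCm38; 10 exons). It had 10.356, 10.384 and 10.341 log2 CPM in KO libraries, against 10.423, 10.395 and 10.438 in WT libraries. Every KO library lay below every WT library, as in 12.5% of all tested genes. The mean difference was -0.06 ± 0.04, 0.960-fold (limma adjusted p = 0.852; 95% interval 0.887-fold to 1.04-fold). Of its partner subunits, Capza1 averaged 686 CPM in KO and 650 CPM in WT libraries (0.08 ± 0.07, adjusted p = 0.815), and Capza2 612 CPM in KO and 606 CPM in WT libraries (0.01 ± 0.11, adjusted p = 0.984). Capzb minus Coro1a, a ratio of 2 genes with free values, was -1.379, -1.334 and -1.361 in KO libraries, against -1.312, -1.356 and -1.329 in WT libraries. The groups overlapped (KO minus WT -0.03 ± 0.04; exact sign-flip test, two-sided, p = 0.5).

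Ezr, ezrin, is the ERM protein whose closed form lies in the cytosol and whose open form ties filaments to membrane proteins (chromosome 17, 6738041 to 6782784, minus strand, GRCm38; 13 exons). It had 8.982, 8.919 and 9.023 log2 CPM in KO libraries, against 9.092, 9.156 and 9.052 in WT libraries. All KO libraries lay below all WT libraries, as in 12.5% of all tested genes. The paired differences were -0.110, -0.237 and -0.029. The mean of -0.13 ± 0.10, 0.917-fold, had the smallest p of the 7 genes and did not pass (limma unadjusted p = 0.0607, adjusted p = 0.606; 95% interval 0.837-fold to 1.00-fold). Of the same 800 genes, 84.1% had a smaller mean difference in size. Sytl3, which overlaps Ezr exons on the other strand, averaged 0.848 CPM in KO and 1.11 CPM in WT libraries, against 503 CPM in KO and 549 CPM in WT for Ezr.

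Msn, moesin, is the ERM protein that lymphocytes express most (chromosome X, 96096042 to 96168552, plus strand, GRCm38; 13 exons). It had 10.386, 10.483 and 10.533 log2 CPM in KO libraries, against 10.519, 10.422 and 10.372 in WT libraries. The groups overlapped, with KO lower in pair 1 and higher in pairs 2 and 3. The mean difference was 0.03 ± 0.15 (limma adjusted p = 0.945; 95% interval 0.941-fold to 1.11-fold), and it turned to -0.036 without pair 3. Rdx, the third ERM gene, averaged 18.3 CPM in KO and 16.9 CPM in WT libraries (0.11 ± 0.42, adjusted p = 0.887).

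The ends of the ezrin and moesin coding sequences encode the tail that binds filaments and holds the conserved threonine whose phosphorylation opens the protein. Over their last 90 bases with the stop codon they differ at 16, marked in capitals, against an identity of 72.1% over the whole coding sequence.
Ezr coding end: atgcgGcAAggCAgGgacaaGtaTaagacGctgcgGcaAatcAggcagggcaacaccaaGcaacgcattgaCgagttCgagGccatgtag
Msn coding end: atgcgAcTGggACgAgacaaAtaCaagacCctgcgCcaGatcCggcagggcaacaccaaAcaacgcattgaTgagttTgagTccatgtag
No window of 50 bases in the Msn transcript (0.0%) occurred in another annotated gene, and 0.193% of those of Ezr did, so the pair can be compared. Ezr minus Msn was -1.404, -1.564 and -1.510 in KO libraries, against -1.427, -1.266 and -1.320 in WT libraries. The groups overlapped through number 1, and the difference of -0.15 ± 0.16 was no larger than its spread over the pairs (exact sign-flip test, two-sided, p = 0.5).

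**Figure D2:**
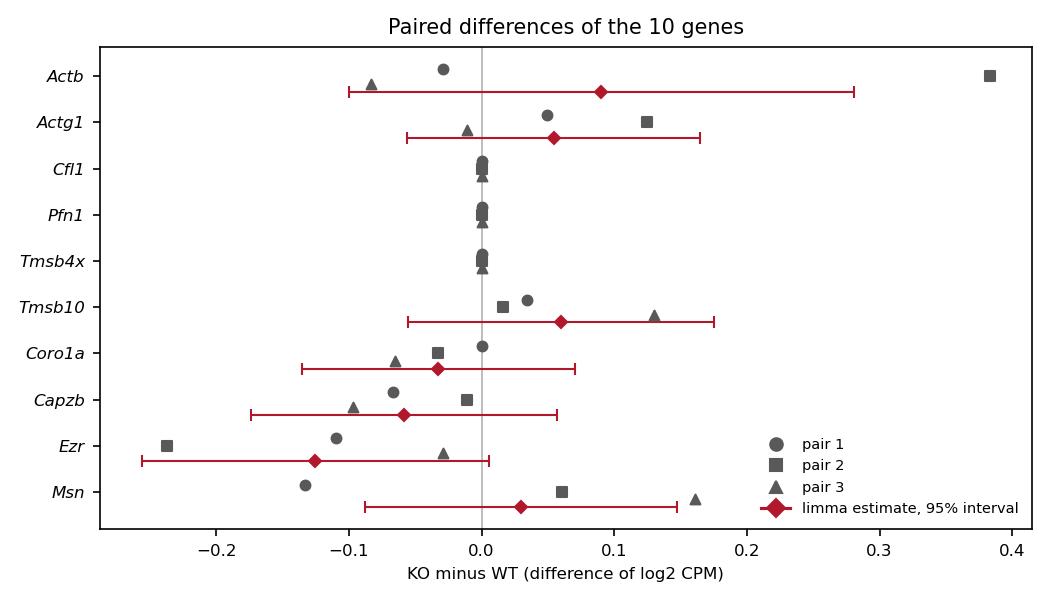
Differences of log2 CPM, KO minus WT (x axis), for each of the 10 genes (rows). Grey symbols are the 3 pairs, and the red diamond with its bar is the limma estimate with its 95% interval, drawn for the 7 genes tested. All 7 intervals include 0; that of Actb is widest (-0.10 to 0.28) and that of Ezr lies almost wholly below 0 (-0.26 to 0.0058).

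Fixed values went with the highest ranks, inside and outside the actin cortex. In each library Pfn1 held rank 3, Tmsb4x rank 4 and Cfl1 rank 5. Around them, Cd74 and H2-Ab1 (antigen presentation) at ranks 1 and 2 and Eef1a1 (translation elongation) at rank 6 also had 1 value each, so 6 genes of the top 10 did and no other gene averaging 1 CPM or more did. The neighbours in this stretch lay far apart on the log2 scale, with 0.162 between H2-Ab1 and Pfn1, 0.188 between Pfn1 and Tmsb4x, 0.185 between Tmsb4x and Cfl1 and 0.181 between Cfl1 and Eef1a1.

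Further down, levels crowd and genes change ranks. Coro1a moved between ranks 10 and 11, with 0.292 to the next gene below it, and had a range of 0.065. Actb moved between ranks 12 and 28, where the next gene lay 0.0080 below it, and had a range of 0.383. Actg1 kept to ranks 37 to 43, Msn to 56 to 68, Tmsb10 to 61 to 69, Capzb to 62 to 70 and Ezr to 264 to 347. The median range over libraries was 0.133 in the top 20 genes and 0.156 in the top 1000. A difference in Pfn1, Tmsb4x or Cfl1 that left the rank as it was cannot be seen in these values. For KO against WT they show only that each of these 3 transcripts kept its rank, and the size of any difference is unknown.

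**Figure D3:**
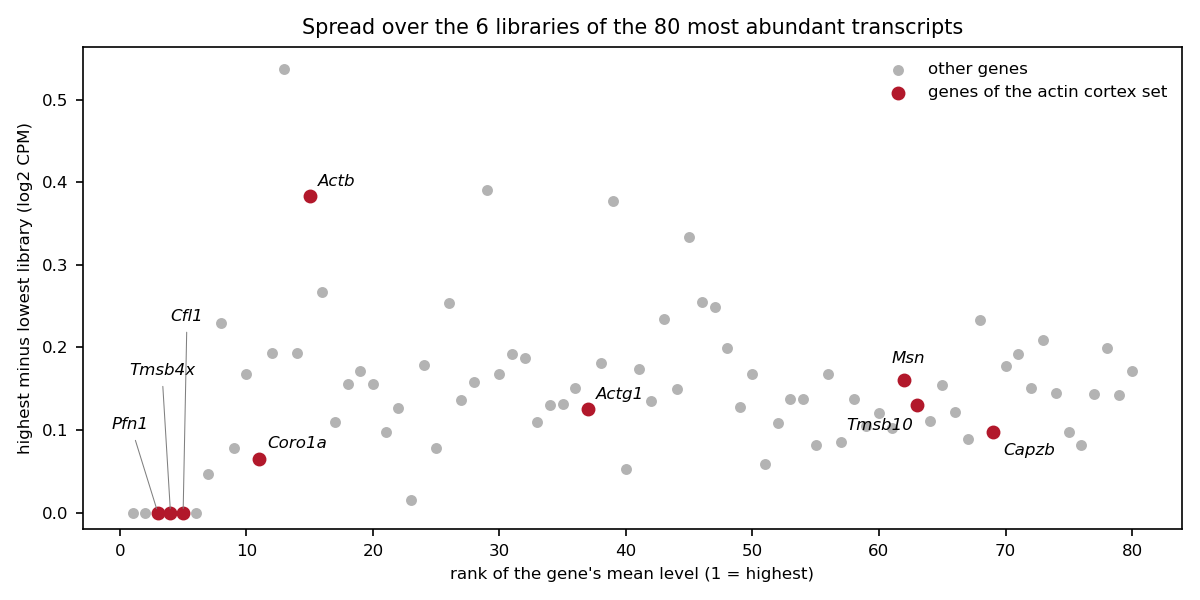
Range over the 6 libraries, highest minus lowest log2 CPM (y axis), of the 80 genes with the highest mean level, ordered by rank (x axis). Red points are genes of the set and grey points are other genes. The first 6 ranks, Pfn1, Tmsb4x and Cfl1 among them, lie at 0, Coro1a lies at 0.065 and Actb at 0.383; Ezr, of mean rank 293, is outside the plot.

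Per kilobase of transcript the order of levels was Pfn1 (7728 CPM per kb over all libraries), Tmsb4x (7605), Cfl1 (2183), Tmsb10 (1997), Coro1a (1951), Actb (1358), Actg1 (986), Capzb (788), Msn (365) and Ezr (166). Tmsb10 and Coro1a overlapped, in this order in 5 of 6 libraries, and every other neighbouring pair was in the same order in 6 of 6. Among Pfn1, Tmsb4x and Cfl1 that order is fixed by their single values and shows no agreement between libraries. For the other genes, the values hold no difference between replicate numbers. The same order in 6 of 6 libraries is therefore not 6 independent observations. The order also depends on which transcript is taken as the length. With its shortest basic coding transcript Cfl1 would stand at 6664 CPM per kb in place of 2183. Tmsb4x would stand at 8368, above the 7728 of Pfn1, and Pfn1 with its own shortest would stand at 10940. Msn and Ezr have 1 such transcript each. Msn was above Ezr per kilobase in both groups, at 369 and 159 CPM per kb in KO, against 361 and 173 CPM per kb in WT.

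**Figure D4:**
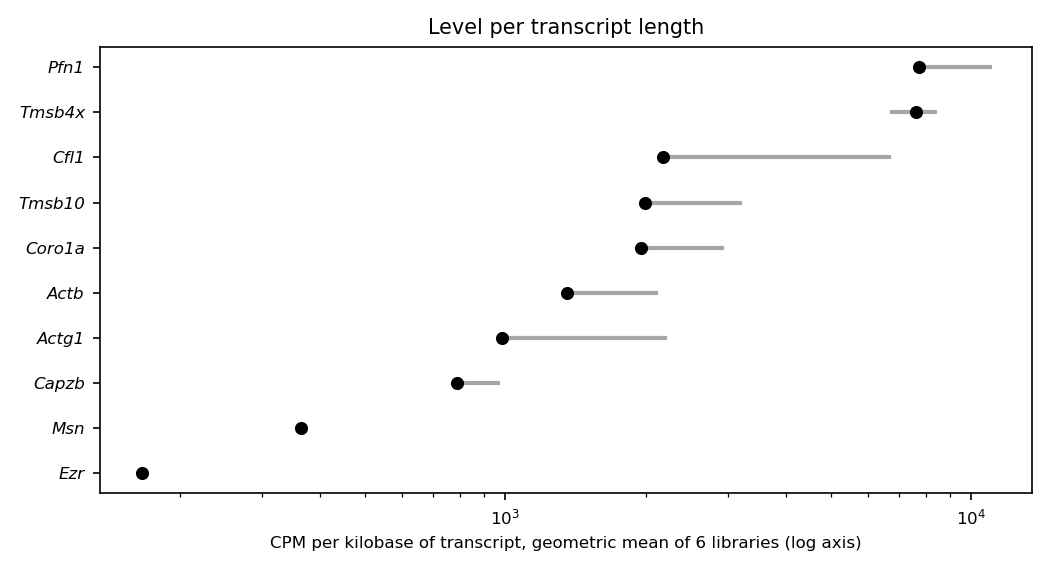
Level of each gene in CPM per kilobase of transcript (x axis, log scale), as the geometric mean of 6 libraries. Points use the transcript chosen for the length, and grey lines span the shortest to the longest basic coding transcript. Pfn1 and Tmsb4x stand highest and Ezr lowest.

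The wider actin cortex was covered by lists for 9 roles with 113 symbols, of which 104 were in the files and 84 reached the level for testing. None of the 84 passed 5% FDR in either direction (0 higher, 0 lower), 40 had a positive and 44 a negative difference, and the median was -0.0033, beside 0.0037 over all tested genes. At an unadjusted limma p under 0.05 there were 8 of 84. Of these 1 was higher (Gmfb) and 7 were lower (Lrrc16a, Cotl1, Rock1, Dbnl, Cd2ap, Fmnl1 and Rltpr). Among all tested genes 8.82% had such a p, 422 higher and 472 lower. The split of the 8 by direction was not tested. All KO libraries were above all WT libraries in 5 of the 84 and below in 12, against 15.2% and 12.5% of all tested genes.

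Among genes of filament turnover, 0 of 16 passed, and Cotl1, coactosin-like 1, a filament-binding relative of cofilin, had the smallest p. It had 8.737, 8.752 and 8.506 log2 CPM in KO libraries, against 8.799, 8.784 and 9.029 in WT libraries. KO was lower in all pairs, and mostly through number 3 (-0.21 ± 0.28, limma adjusted p = 0.369). Gmfb, which frees Arp2/3 branches, averaged 199 CPM in KO and 175 CPM in WT libraries (0.18 ± 0.08, adjusted p = 0.392). The muscle cofilin Cfl2 averaged 10.5 CPM in KO and 10.9 CPM in WT libraries (-0.06 ± 0.18, adjusted p = 0.954). Of the other profilins and thymosins 0 of 3 passed, and Pfn2, profilin 2, had the smallest p (0.15 ± 0.43, adjusted p = 0.817).

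Of the capping genes 0 of 11 passed, with a median of -0.050. Lrrc16a, now called Carmil1, a regulator that pulls capping protein off filament ends, had 0.212, 0.732 and 0.365 log2 CPM in KO libraries, against 1.413, 0.894 and 1.261 in WT libraries. All KO libraries were lower, at levels near 1 CPM (-0.75 ± 0.53, limma adjusted p = 0.364). Its relative Rltpr, now Carmil2, differed by -0.20 ± 0.24 (adjusted p = 0.552), and the capping protein partner Cd2ap by -0.20 ± 0.21 (adjusted p = 0.475). Of the other coronins 0 of 5 passed, with Coro7, a coronin of the Golgi, at 0.10 ± 0.10 (adjusted p = 0.773).

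Of the ERM regulators and partners 0 of 18 passed, with a median of -0.054. Rock1, a kinase that acts on myosin and ERM proteins, had 6.750, 6.620 and 6.923 log2 CPM in KO libraries, against 6.981, 7.111 and 6.809 in WT libraries. KO was lower in pairs 1 and 2 and higher in pair 3 (-0.20 ± 0.30, limma adjusted p = 0.473), and the gene passed without pair 3 (-0.36, adjusted p = 0.034). Rhoa, the GTPase upstream of it, differed by 0.01 ± 0.18 (adjusted p = 0.984), and Nf2, merlin, a relative of the ERM proteins, by -0.0050 ± 0.15 (adjusted p = 0.996).

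Of the formins and Ena/VASP proteins, which elongate filaments, 0 of 7 passed, and Fmnl1, the formin of blood cells, had the smallest p (-0.21 ± 0.28, limma adjusted p = 0.514). Of the bundling and crosslinking proteins 0 of 16 passed, and Dbnl, an adaptor that joins filaments to antigen receptor signalling, had the smallest p. It averaged 430 CPM in KO and 476 CPM in WT libraries (-0.15 ± 0.13, adjusted p = 0.474). Of the SRF pathway 0 of 5 passed, with a median of 0.040.

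Of the other actins 0 of 5 passed. Acta2, smooth muscle actin, averaged 3.97 CPM in KO and 3.20 CPM in WT libraries, with all KO libraries above all WT libraries (0.31 ± 0.25, limma adjusted p = 0.776). It is also in the list of stroma and endothelium markers, 7 genes with 3 of them at 1 CPM or more. The list summed to 38.3 to 39.1 CPM in KO and 44.1 to 45.2 CPM in WT libraries, with Col1a1 and Col3a1 at the lowest common value. Most of that sum is Pecam1 (mean 5.02 log2 CPM in KO, 5.287 in WT), and Acta2 itself is part of it, so the sum is no measure of stroma beside Acta2. The part of stroma in the Acta2 value was not tested. CArG boxes occurred in the windows of 7 of the 90 genes of the lists that have one (7.78%): Acta1, Actc1, Fhl2, Lima1, Pip5k1a, Srf and Vcl.

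**Figure D5:**
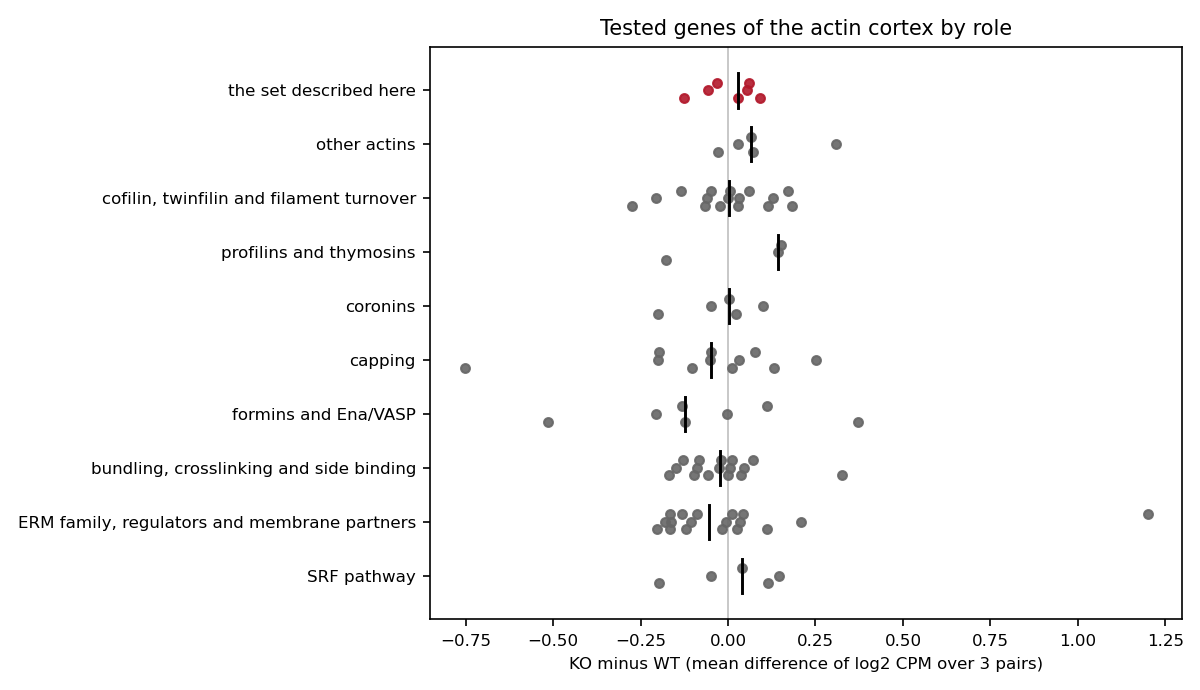
Mean difference of log2 CPM over 3 pairs, KO minus WT (x axis), of the 7 tested genes of the set (red, top row) and of the 84 other tested genes of the actin cortex by role (grey); Twf1 and Twf2 stand in both the turnover and the capping row. Black lines are medians. The set lies between -0.13 and 0.09, and the leftmost point is the low-level gene Lrrc16a at -0.75.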

How the data were processed

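Per the labels' protocols, TruSeq mRNA libraries were read in pairs on a NextSeq500. Alignment to mm10 (STAR 2.6.1a), trimming (Trim Galore 0.6.5), quality checks (FastQC 0.11.7), featureCounts with Subread 2.0.1, and limma are named in the submitters' processing notes, with no settings. The deposited files hold log2 values, 1 per gene and library. That they are log2 CPM was read from the values: their linear sums lay between 997617 and 1000513, and the lowest common value was -5.063. The values carry no replicate effect, and read depth is unknown. In the limma fit, precision rests on the spread between pairs, for most genes mainly that of other genes, as given below.

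The difference between KO and WT was fitted per gene with limma 3.58.1 (R 4.3.3) on genotype and replicate number, a variance trend over level, robust estimation and two-sided tests adjusted by Benjamini-Hochberg over 10133 genes (5% FDR). Genes averaging 1 CPM or more entered, and genes with 1 value in all libraries (within 0.0005) did not. The fit has 2 residual and a median of 81.2 prior degrees of freedom, so most of a gene's spread was taken from other genes; Actb kept 6.965 prior ones. The fit was tested on simulated data, where it missed most changes of the smallest size tried and its share of false calls was above the FDR set. Whether the replicate numbers pair the samples cannot be checked, since the equal pair sums fix the correlation within a number; the block was kept because its degrees of freedom are already used. CPM of a group are geometric means, and ± is the SD over 3 paired differences. The genes and lists were chosen with earlier results of these data known, and no list was tested as a set. Named beside the 10 genes are Basp1, the gene with the smallest p in each role list and the genes with 1 value in all libraries; Lrrc58, Pdxp, Gmfb, Cd2ap, Rltpr, Cfl2, Capza1, Capza2, Rdx, Rhoa, Nf2 and the antisense neighbours were chosen after their values were seen. Transcripts, lengths and coordinates are from GENCODE M21 (GRCm38, the build called mm10), with the principal isoform as the length, and promoters from RefSeq (GRCm38.p6). Alternatives changed the block, filter, log offset, variance model, centring, length trend and pairs used.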

Additional observations from a re-analysis of the deposited data

How the results depend on the processing

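None of the 7 tested genes of the set passed 5% FDR under any of the 12 alternatives, and of 84 values 82 kept their direction. The other 2 were Actb without pair 2 and Msn without pair 3. Changes to the block, the filters or the variance model leave a gene's mean difference as it is. Only the other alternatives could turn a direction. With 1 pair left out Actb ranged from -0.056 to 0.177, Msn from -0.036 to 0.111, Actg1 from 0.019 to 0.087, Tmsb10 from 0.025 to 0.082, Coro1a from -0.049 to -0.0165, Capzb from -0.082 to -0.039 and Ezr from -0.1735 (without pair 3) to -0.0695 (without pair 2). The count of 27 genes over the whole table was less stable. It was 142 with no replicate block, 95 with no filter on low values, 0 with no variance trend (where Basp1 had an adjusted p of 0.150), 12 with no robust estimation, 3 with the trend over transcript length removed, and 11 to 136 with 1 pair left out. Other actin cortex genes past 5% FDR numbered 0 to 2 with 1 pair left out, with Pdxp past it without pair 1 and Rock1 without pair 3. The fit with no replicate block counts degrees of freedom that the equal pair sums leave no room for, and over all alternatives the lowest adjusted p among the 7 genes was 0.136 (Ezr). With 1 pair left out the differences in ratio ranged from -0.075 (without pair 2) to 0.093 for Actb to Actg1. They ranged from -0.082 to -0.025 for Tmsb4x to Tmsb10, from -0.244 to -0.0835 for Ezr to Msn and from -0.0495 to -0.005 for Capzb to Coro1a. With 3 pairs, leaving 1 out always moves the mean by less than 1 SD over the pairs, so these shifts are no test of stability. The count of 3 genes with fixed values was the same at a tolerance of 0.01. The cause of the other changes was not tested. Depth is unknown, so no counting error can be given for any gene.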

Other observations

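Pdxp, a phosphatase that switches cofilin on, had 3.347, 2.910 and 2.123 log2 CPM in KO libraries, against 2.514, 2.951 and 3.739 in WT libraries. Its paired differences were 0.833, -0.041 and -1.616 (limma adjusted p = 0.958; -0.83 without pair 1, adjusted p = 0.0174).

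Lrrc58, whose annotated transcript shares 9.57% of the 50-base windows of Actb, had 5.299, 5.694 and 5.677 log2 CPM in KO libraries, against 5.790, 5.395 and 5.411 in WT libraries. In pair 1 both genes were lower in KO, in pair 2 both were higher, and in pair 3 Lrrc58 was higher and Actb lower.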
